A study of Mus musculus with 6 samples.

Results

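Dio1, Thra, Thrb, Thrsp and Crym are genes through which cells activate, bind and answer thyroid hormone, and all 5 of them were found by gene symbol among the 23420 genes counted in mouse proximal jejunum. They were chosen by their counts in ob/ob and wild-type (WT) jejunum, with the difference between the groups already known, so their values in that comparison are a description and carry no test. RNA sequencing was done on whole tissue from male ob/ob mice, which lack functional leptin, overeat and become obese, and from C57BL/6J WT mice. Each group had 3 libraries, and each library pooled RNA from 2 jejuna, so p-values measure the spread between such pools. Both strains were bought from a supplier, the controls are not described as littermates, the labels name no treatment, and the sources used here give neither the age nor the hour of sampling for these libraries. The study's mice were generally fasted before they were killed. Overeating, obesity and the lack of leptin go together in these groups and cannot be told apart, and circulating thyroid hormone is not among the values used here.

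The thyroid gland releases mostly thyroxine (T4), a prohormone. Deiodinases, which are selenocysteine enzymes, remove iodine from it and give the active hormone T3 or inactive products. T3 enters the nucleus and binds the receptors encoded by Thra and Thrb, which sit on DNA with a retinoid X receptor and exchange corepressors for coactivators when the hormone arrives. In the intestine the hormone is known for its part in crypt cell proliferation and in the maturation of the epithelium, where the alpha receptor is the main one.

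Of the 5 genes, Dio1 had the largest difference relative to its error, with about 2.0-fold more transcript in WT (ratio of means 1.99). Thra and Thrb had ob/ob means that were 82.5% and 76.4% of the WT means. Thrsp was low in every library, and its large difference rested mainly on 1 WT library. Crym was also low, with 14 to 32 counts in a library, and overlapped between the groups. All 5 genes met the filter of more than 1 CPM (counts scaled to the library total) in at least 3 libraries, which 13168 genes met. On this scale Thrsp was under 1 CPM in every ob/ob library, so it met the filter only through the WT libraries. The edgeR quasi-likelihood test with Benjamini-Hochberg adjustment called 747 of these genes (5.67%) at 0.05, 496 of them (3.77%) higher and 251 (1.91%) lower in ob/ob, and 1 of the 5, Dio1, was among the lower genes. The groups did not overlap in CPM for 32.0% of the tested genes, split into 16.2% lower and 15.8% higher in ob/ob, and 4 of the 5 genes were lower in this way. The median log2 fold change of the 5 was -0.39, beside -0.01 over all tested genes. Since this contrast chose the genes, nothing is read from either count or from this median.

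**Figure D1:**
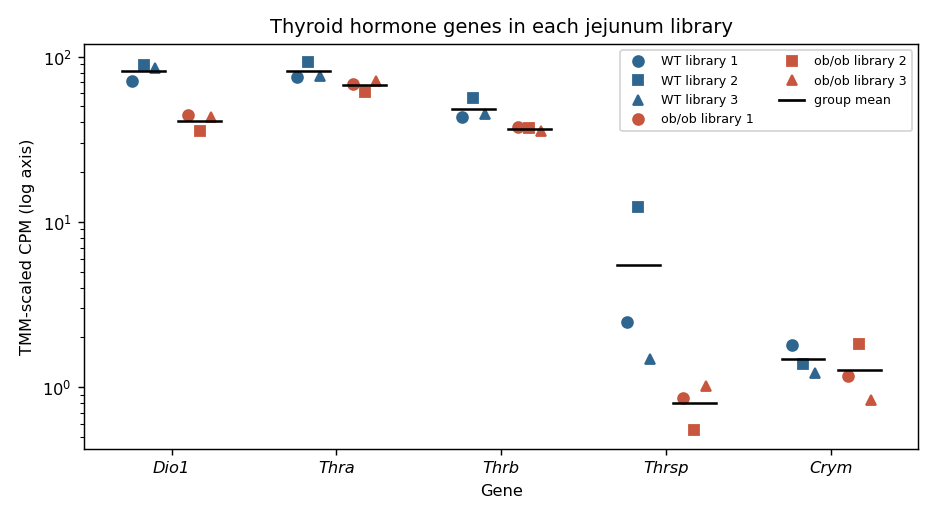
TMM-scaled CPM (log axis) of the 5 genes in each of the 3 WT (blue) and 3 ob/ob (red) libraries, with the marker shape giving the library number and the black line the group mean. Dio1 lies between 71.4 and 88.6 CPM in WT and between 35.5 and 44.4 CPM in ob/ob, and for Thrsp WT library 2 stands far above the others.

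Dio1 encodes type 1 deiodinase, which converts T4 to T3 and also clears reverse T3 and sulfated hormone. It is abundant in liver, kidney and thyroid, and its own transcript is raised by T3 in mouse liver. The gene (ENSMUSG00000034785) lies on the minus strand of chromosome 4 from 107291465 to 107307169 (GRCm38, the assembly behind mm10). It had 721, 584 and 727 counts in the ob/ob libraries and 1268, 1344 and 1607 counts in the WT libraries. After scaling with TMM factors this was 44.4, 35.5 and 43.3 CPM in ob/ob and 71.4, 88.6 and 85.4 CPM in WT. Every WT library was above every ob/ob library, and the lowest WT value was 1.61 times the highest ob/ob value. The means were 41.1 ± 4.8 CPM in ob/ob against 81.8 ± 9.1 in WT (mean ± SD, n = 3), and the log2 fold change was -0.99 ± 0.11 (SE). With any 1 library left out the log2 fold change lay between -1.08 and -0.90.

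Nearly all deiodinase counts in this tissue came from Dio1. Dio2, which activates T4 in brown fat, brain and pituitary, had 4, 3 and 4 counts in ob/ob and 5, 5 and 6 counts in WT. Dio3, which inactivates T4 and T3, had 1 count in all 6 libraries together. Over all libraries the totals were 6251 counts for Dio1, 27 for Dio2 and 1 for Dio3, where 3 counts in a library corresponded to between 0.159 and 0.198 CPM. Both of the latter genes were under the filter and were not tested. Iyd, which recovers iodide from iodotyrosines, had 32.1 ± 1.4 CPM in ob/ob against 31.6 ± 2.0 in WT, with overlapping groups (log2 fold change 0.02, edgeR adjusted p = 0.864).

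Markers of the epithelium were read beside Dio1. Among 10 of them, 4 rose and the other 6 did not pass the test, and their median log2 fold change was 0.33. Krt20, a keratin of mature enterocytes, rose by 0.38 ± 0.08 (edgeR adjusted p = 0.0313) and Fabp2, the intestinal fatty acid binding protein, rose by 0.54 ± 0.12 (SE, edgeR adjusted p = 0.0345). Both missed the threshold with most single libraries left out, Krt20 with any but WT library 1 and Fabp2 with any but WT library 3, and with the replicate number as a block (adjusted p = 0.0554 and 0.0510). Vil1, which builds the brush border, had a log2 fold change of 0.29 and missed the threshold (edgeR adjusted p = 0.0627). Lct, the lactase of the brush border, was the only one of the 10 with a negative log2 fold change (-0.21, edgeR adjusted p = 0.31), at 3777 ± 309 CPM in ob/ob against 4379 ± 731 in WT, with overlapping groups. Set against Epcam, a gene of the whole epithelium, the ratio of Dio1 counts to Epcam counts was 0.0302, 0.0234 and 0.0289 in ob/ob against 0.0564, 0.0704 and 0.0576 in WT. The ratio to Epcam was thus also lower in every ob/ob library. In bulk tissue, fewer cells of a type and less RNA per cell cannot be told apart. Gata4, a transcription factor of the proximal small intestine, had 106 ± 2.0 CPM in ob/ob against 114 ± 2.0 in WT (edgeR adjusted p = 0.264). Of 5 tested markers of the proximal small intestine, Gata4 among them, 0 passed the edgeR test, 1 was higher at an unadjusted p under 0.05 and in DESeq2, and 1 was lower in ob/ob without overlap. Their median log2 fold change was -0.10. Of 3 tested markers of the distal small intestine, 1 rose, 2 were higher in ob/ob without overlap, and the median was 0.49. The distal markers summed to between 238 and 268 CPM in ob/ob and to between 187 and 228 CPM in WT. The rise of the called distal marker was lost with library size alone as the scale and with any 1 library left out but WT library 1. The part of the position of sampling in the Dio1 difference was not tested.

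Promoter sequence is shown for Dio1, the gene with the largest difference relative to its error, and for Thrb, whose window holds a receptor half-site. RefSeq (GRCm38.p6) gives 250 bases before and 50 after the start of each gene, and 3 of the 5 genes matched. Bases outside exons of the GENCODE M21 gene model are printed, 5′ to 3′ on the strand of the gene, and capitals mark a motif match.
Dio1, chr4:107307170-107307418, minus strand: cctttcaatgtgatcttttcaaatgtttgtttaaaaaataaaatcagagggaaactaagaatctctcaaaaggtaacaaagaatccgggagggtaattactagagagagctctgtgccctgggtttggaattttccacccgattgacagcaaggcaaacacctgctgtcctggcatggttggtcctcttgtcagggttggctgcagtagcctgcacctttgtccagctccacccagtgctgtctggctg
Thrb, chr14:17660710-17660891, plus strand: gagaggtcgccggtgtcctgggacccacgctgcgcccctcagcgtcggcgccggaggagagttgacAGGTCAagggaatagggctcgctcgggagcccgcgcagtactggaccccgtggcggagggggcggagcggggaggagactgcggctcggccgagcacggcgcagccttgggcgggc

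The motifs searched, on both strands of the 300-base windows, were the nuclear receptor half-site AGGTCA, its direct repeat spaced by 4 bases (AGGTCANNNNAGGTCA), the GATA motif AGATAA, the TATA box TATAAA, the CCAAT box CCAAT and the HNF4 element CAAAGTCCA. The half-site is contained in the direct repeat. Of 32851 mouse promoter windows, 16.3% held the half-site, 0.0152% the direct repeat, 11.2% the GATA motif, 13.6% the TATA box, 37.4% the CCAAT box and 0.475% the HNF4 element. The Dio1 window held none of these letters, which says only that they are not in this window. The Thrb window shown held the half-site from -184 to -179 relative to the start, counting the base just before the start as -1. A second Thrb start, further along chromosome 14, had a TATA box from -167 to -162, and the Thrsp window had CCAAT boxes from -79 to -75 and from -52 to -48, both inside the first exon of the GENCODE model. The median GC content of all windows was 52.7%, with 49.7% for Dio1, 72.7% and 46.0% for the Thrb windows and 54.3% for Thrsp. These matches are a description of the letters and not of binding.

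Thra and Thrb encode the nuclear receptors of T3. Thra (ENSMUSG00000058756, chromosome 11, 98740638 to 98769006, plus strand) had 68.2, 61.5 and 71.7 CPM in ob/ob and 75.8, 92.4 and 76.0 CPM in WT. The groups did not overlap, but the lowest WT library was only 1.06 times the highest ob/ob library. The means were 67.1 ± 5.2 and 81.4 ± 9.5 CPM (mean ± SD, n = 3), and the log2 fold change was -0.28 ± 0.09 (SE). It was -0.18 without WT library 2, which had the highest level, and between -0.33 and -0.22 with any other library left out. The Thra gene makes the T3-binding receptor and a variant that does not bind the hormone, and counts per gene do not separate them.

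The 3′ end of Thra overlaps Nr1d1, which encodes the clock repressor REV-ERBα on the opposite strand, from 98767932 to 98769006. Their exons share 263 bases, or 5.7% of the Thra exon length. Nr1d1 had 76.6, 45.0 and 76.0 CPM in ob/ob and 114, 120 and 91.3 CPM in WT, so its groups did not overlap either (log2 fold change -0.72, edgeR adjusted p = 0.0568). The sources used here do not say whether counting used strand, and the effect of this overlap on the Thra value, in either direction, was not tested.

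Thrb (ENSMUSG00000021779, chromosome 14, 17660261 to 18038090, plus strand) encodes the beta receptor, which carries most of the hormone's action in liver and pituitary. It had 37.7, 36.9 and 35.3 CPM in ob/ob and 42.9, 56.2 and 44.7 CPM in WT. The ob/ob libraries lay within 1.07-fold of each other, and all were below the lowest WT library. The means were 36.6 ± 1.2 and 47.9 ± 7.2 CPM (mean ± SD, n = 3), and the log2 fold change was -0.39 ± 0.10 (SE), which was -0.26 without WT library 2. WT library 2 thus held the highest value of Dio1, Thra, Thrb and Thrsp alike.

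Both receptor genes are also expressed outside the epithelium, and markers of other cell types were read beside them. The fat cell markers summed to 360 CPM in WT library 2, against 123 and 112 CPM in WT libraries 1 and 3. Of the 7 tested markers of fibroblasts and matrix 0 passed the edgeR test, while 4 were lower at an unadjusted p under 0.05, 2 in DESeq2 and in the edgeR likelihood ratio test and 0 in limma-voom. They had a median log2 fold change of -0.24, and 5 of them were lower in ob/ob without overlap, with sums of 328 to 390 CPM against 411 to 434 CPM. Of 7 tested endothelial markers 1 fell, their median was -0.27, and they summed to between 62.4 and 71.8 CPM in ob/ob and to between 81.8 and 87.7 CPM in WT. Of the 8 tested smooth muscle markers 0 passed the edgeR test, DESeq2, the likelihood ratio test or limma-voom, and 1 was lower at an unadjusted p under 0.05. They had a median of -0.22, with overlapping sums of 534 to 773 CPM and 614 to 913 CPM. The part of these cells in the Thra and Thrb differences was not tested.

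The ratio of the receptors overlapped between the groups. Per kilobase of exon, the level of Thra was 2.95 ± 0.30 times that of Thrb in ob/ob and 2.73 ± 0.10 times in WT (mean ± SD, n = 3). The range was 2.67 to 3.26 in ob/ob and 2.64 to 2.83 in WT. With the longest single transcript as the length, the ratio was 4.64 ± 0.47 and 4.31 ± 0.15, and the groups again overlapped. On the same per-length scale (CPM per kilobase of union exon), the WT order was Dio1 at 41.5 ± 4.6, Thra at 17.6 ± 2.1, Thrb at 6.48 ± 0.97, Thrsp at 2.49 ± 2.8 and Crym at 0.434 ± 0.088. In ob/ob it was Dio1 at 20.8 ± 2.5, Thra at 14.5 ± 1.1 and Thrb at 4.95 ± 0.16, with Crym at 0.376 ± 0.15 and Thrsp at 0.369 ± 0.11 (mean ± SD, n = 3). Thrsp and Crym did not differ beyond their spread in ob/ob. With the union of exons as length, the libraries of every other pair of neighbours did not overlap in either group, although the highest WT value of Thrsp, 5.66, came close to the lowest of Thrb, 5.80. The order in ob/ob depended on the length used. With the longest single transcript, the ob/ob means were 27.4 for Thra, 24.3 for Dio1, 5.91 for Thrb, 0.576 for Thrsp and 0.476 for Crym, so that Thra stood above Dio1. In WT that length gave 48.4 for Dio1, 33.2 for Thra, 7.73 for Thrb, 3.90 for Thrsp and 0.548 for Crym, which by means is the order found with the union. With that length the libraries of Dio1 (21.0 to 26.3) and Thra (25.1 to 29.2) overlapped in ob/ob, as did those of Thrb (6.92 to 9.06) and Thrsp (1.06 to 8.85) in WT, and Thrsp and Crym again overlapped in ob/ob.

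Thrsp (ENSMUSG00000035686, chromosome 7, 97412938 to 97417730, minus strand) encodes Spot 14, a small protein of lipid-making tissues that T3 and carbohydrate feeding raise in liver. It had 14, 9 and 17 counts in ob/ob and 44, 188 and 28 counts in WT, or 0.862, 0.547 and 1.01 CPM against 2.48, 12.4 and 1.49 CPM. The groups did not overlap, but WT library 2 alone held most of the WT counts. The means were 0.807 ± 0.24 and 5.45 ± 6.0 CPM (mean ± SD, n = 3), and the log2 fold change was -2.70 ± 0.82 (SE). Without WT library 2 it was -1.28.

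Thrsp moved from library to library with genes of fat cells and of lipid synthesis. Over the 6 libraries, which include both groups, Pearson's r of log2 CPM with Thrsp was 0.996 for Fabp4 and 0.929 for Adipoq. It was 0.982 for Fasn and 0.96 for Scd1. Adipoq, the fat cell hormone adiponectin, had 17, 0 and 14 counts in ob/ob and 77, 407 and 51 counts in WT. Fabp4, the fatty acid binding protein of fat cells, had 84, 70 and 96 counts in ob/ob and 246, 818 and 179 counts in WT. The ratio of Thrsp to Adipoq counts was 0.571, 0.462 and 0.549 in the 3 WT libraries. In ob/ob the ratio was 0.824 and 1.21 in libraries 1 and 3, and library 2 had 9 Thrsp counts and 0 Adipoq counts. The 10 fat cell markers summed to between 103 and 110 CPM in ob/ob and to between 112 and 360 CPM in WT, and 6 of the 8 tested markers were lower in ob/ob without overlap, while 2 fell in the edgeR test, Cfd and Car3. Most of the ob/ob sum was Cidec, a lipid droplet gene that enterocytes also express, at 91.4 CPM. Lep, the leptin gene and also one of these markers, had 23, 0 and 20 counts in ob/ob and 7, 29 and 6 in WT. Its groups overlapped (log2 fold change 0.07). Cfd, the fat cell protease adipsin, fell by 6.29 ± 1.13 on the log2 scale (SE, edgeR adjusted p = 0.0193) and by 4.87 without WT library 2, and both Cfd and Car3 missed the threshold without any 1 of the ob/ob libraries. With all libraries, limma-voom gave adjusted p = 0.0511 for Cfd and 0.147 for Car3. With 2, 1 and 8 Cfd counts in ob/ob the size of its change is uncertain, and Cfd met the filter only through the WT libraries. The part of fat cells in the Thrsp difference was not tested.

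**Figure D2:**
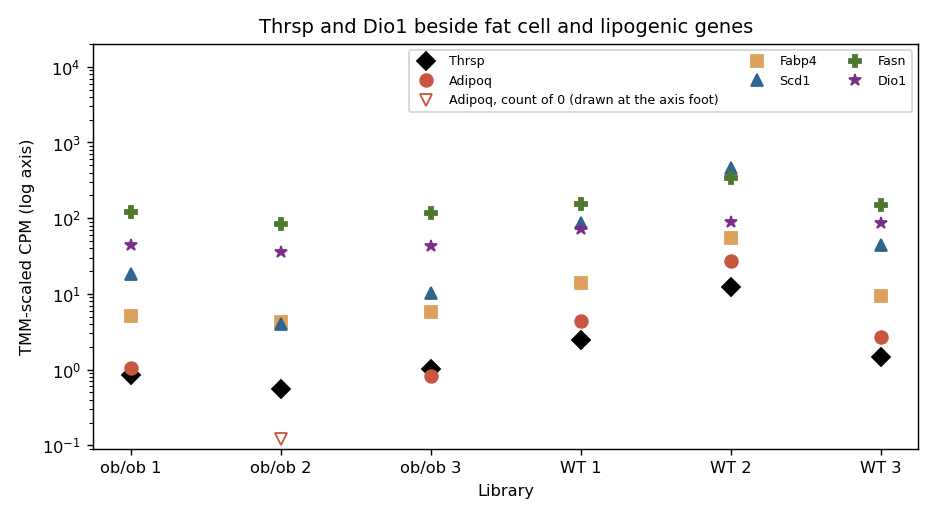
TMM-scaled CPM (log axis) of Thrsp and Dio1 beside the fat cell genes Adipoq and Fabp4 and the lipid synthesis genes Scd1 and Fasn in each library, with an open triangle for a count of 0. Thrsp, Adipoq, Fabp4, Scd1 and Fasn all peak in WT library 2, and Dio1, at 71.4, 88.6 and 85.4 CPM in the 3 WT libraries, is also highest there.

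Dio1 had 71.4, 88.6 and 85.4 CPM in the WT libraries, where Adipoq had 4.34, 26.8 and 2.71 CPM. Both genes were lower in every ob/ob library. Over the 6 libraries, which include both groups, Pearson's r of log2 CPM between Dio1 and Adipoq was 0.888. Without WT library 2 the log2 fold change of Dio1 was -0.93. The part of fat cells in the Dio1 difference was not tested. The 7 markers of B cells summed to 112, 56.5 and 18.4 CPM in the WT libraries and to between 9.66 and 15.6 CPM in ob/ob, and 4 of the 6 tested fell in edgeR, while 0 were called by limma-voom. Among the WT libraries Dio1 was lowest in library 1, where the B cell sum was highest. The part of B cells in any of these values was not tested.

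Crym (ENSMUSG00000030905, chromosome 7, 120186380 to 120202111, minus strand) encodes mu-crystallin, which binds T3 in the cytosol. It had 19, 30 and 14 counts in ob/ob and 32, 21 and 23 counts in WT. The means were 1.28 ± 0.50 and 1.47 ± 0.30 CPM (mean ± SD, n = 3), with overlapping groups and a log2 fold change of -0.21 ± 0.31 (SE). Leaving out ob/ob library 3 gave 0.02 and leaving out ob/ob library 2 gave -0.56, so no direction is given.

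**Figure D3:**
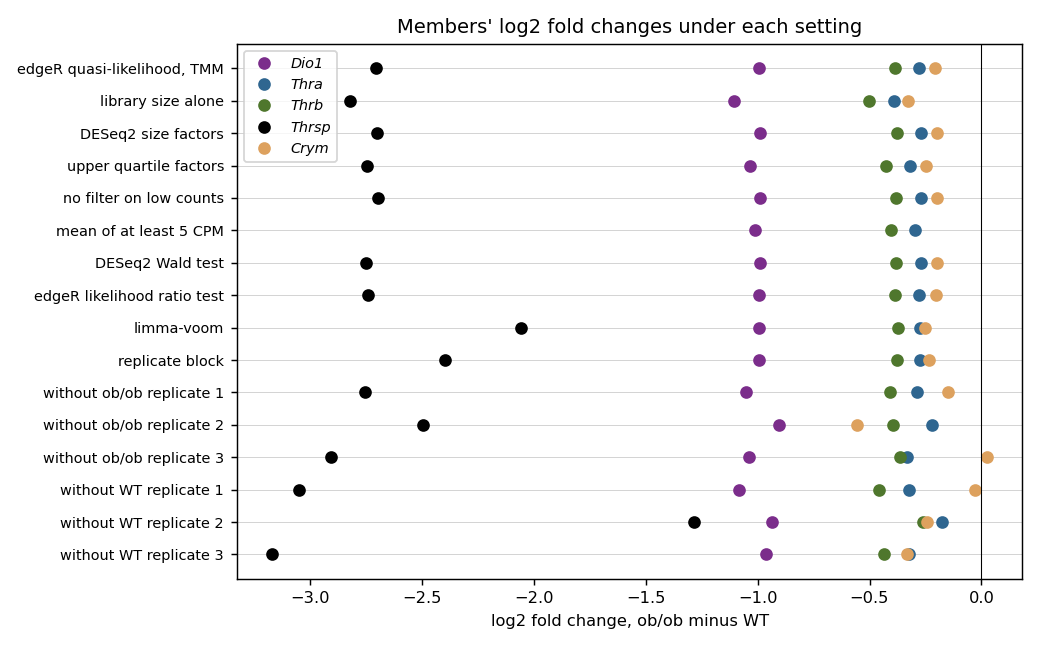
Log2 fold change (ob/ob minus WT) of the 5 genes under each scaling, filter, test and left-out library. Dio1 stays between -1.11 and -0.90 throughout, Thrsp moves to -1.28 without WT library 2, and Crym lies on either side of 0.

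The pathway around these genes was read through 13 lists, which without the 5 genes held 103 tested genes. Of these 103, 7 (6.80%) rose and 4 (3.88%) fell, where 3.77% and 1.91% of all tested genes did, and their median log2 fold change was 0.02. These counts depended on single libraries, as did those over all genes. Leaving out ob/ob library 1 gave 0 higher and 1 lower, ob/ob library 2 gave 1 and 1, and ob/ob library 3 gave 4 and 2. Leaving out WT library 1 gave 4 and 6, WT library 2 gave 3 and 3, and WT library 3 gave 7 and 3. Among all 13168 tested genes, leaving out ob/ob libraries 1, 2 and 3 gave 101 and 16, 158 and 37, and 230 and 83. For WT libraries 1, 2 and 3 these counts were 406 and 256, 225 and 74, and 382 and 209. Each direction is set against the middle of all genes. With library size alone as the scale, the median of all genes was -0.13, and 328 genes were called higher and 1407 lower, while upper quartile factors gave 390 and 468.

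Thyroid hormone enters cells through transporters, and 1 of the 7 tested transporter genes rose while the other 6 did not pass the test. Slc7a5, which with Slc3a2 forms a carrier of large neutral amino acids that also takes thyroid hormone, had 23.1, 20.7 and 16.2 CPM in ob/ob and 12.8, 9.43 and 8.66 CPM in WT. It rose by 0.96 ± 0.17 on the log2 scale (SE, edgeR adjusted p = 0.0193), but its adjusted p was 0.0719, 0.0760 and 0.0527 when ob/ob library 1, ob/ob library 2 or WT library 2 was left out. Its partner Slc3a2 had a log2 fold change of -0.07 (edgeR adjusted p = 0.541). Slc16a10, the aromatic amino acid carrier that exports T3, was among the more abundant transporters at 348 ± 22 CPM in ob/ob against 377 ± 43 in WT (mean ± SD, n = 3, edgeR adjusted p = 0.456). Slc17a4, a T4 and T3 carrier, had 70.6 ± 3.8 CPM in ob/ob against 106 ± 27 in WT (log2 fold change -0.59) and just missed the threshold (edgeR adjusted p = 0.0521). It was lower past the threshold in 9 of the 15 alternatives, among them DESeq2 (adjusted p = 0.00117) and the edgeR likelihood ratio test (adjusted p = 0.00523). Without WT library 2, which had the highest level, its log2 fold change was -0.36.

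Genes of conjugation, which tags the hormone for excretion, gave 0 calls among 5 tested in edgeR, with 1 lower at an unadjusted p under 0.05 and 1 lower, Sult1d1, in DESeq2. The intestinal sulfotransferase Sult1b1 had a log2 fold change of 0.13 (edgeR adjusted p = 0.362). Sult1d1 had a log2 fold change of -0.27 and did not reach the threshold (edgeR adjusted p = 0.0727). Ttr, a plasma carrier of T4, was near 1.5 CPM in both groups (1.54 and 1.56 CPM). Neither the retinoid X receptors nor the cofactors gave a call. Of 18 tested partners and cofactors 0 were called by edgeR, 2 higher and 4 lower had an unadjusted p under 0.05, the edgeR likelihood ratio test called 1 lower, and DESeq2 and limma-voom called 0. They had log2 fold changes between -0.28 and 0.18. Rxra, the main receptor partner, had 201 ± 12 and 218 ± 3.7 CPM (mean ± SD, n = 3, edgeR adjusted p = 0.253).

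Among genes that thyroid hormone is known to raise in mouse tissues, 18 were tested besides Dio1 and Thrsp, and 3 rose and 1 fell. Gpd2, the mitochondrial glycerol phosphate dehydrogenase, rose by 0.55 ± 0.09 on the log2 scale (SE, edgeR adjusted p = 0.0166), from 407 to 595 CPM. Alpi, the intestinal alkaline phosphatase of mature enterocytes, rose by 0.44 ± 0.11 (SE, edgeR adjusted p = 0.0496). Leaving out ob/ob library 1 cost Gpd2 its call (0.60, adjusted p = 0.0512), and leaving out any 1 of the 6 libraries did so for Alpi, as did DESeq2 size factors (adjusted p = 0.0522) and upper quartile factors (adjusted p = 0.0558). Hr, a corepressor gene that T3 raises in brain and skin, had 10.4 ± 2.1 CPM in ob/ob against 15.4 ± 1.7 in WT and did not reach the threshold (edgeR adjusted p = 0.0628), but it did in 4 of the 15 alternatives, among them DESeq2 (adjusted p = 0.0207) and the likelihood ratio test (adjusted p = 0.0133). Pck1 (log2 fold change 0.91, edgeR adjusted p = 0.0541), G6pc (0.76, 0.0551) and Atp1b1 (0.32, 0.0753) also missed the threshold, with higher means in ob/ob. They passed it in 5, 4 and 2 of the 15 alternatives. Of the 18 genes, 6 were higher and 7 lower at an unadjusted edgeR p under 0.05. Klf9, a transcription factor raised by T3, had a log2 fold change of 0.14 (edgeR adjusted p = 0.379).

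Scd1 and Fasn, genes of lipid synthesis, were highest in WT library 2, as Thrsp was. Of 14 lipid synthesis genes tested besides Thrsp, 2 fell, Scd1 and Scd2, the other 12 did not pass the test, and the median log2 fold change was -0.22. Scd1, a fatty acid desaturase, had 18.2, 4.01 and 10.4 CPM in ob/ob and 87.1, 467 and 44.2 CPM in WT, and fell by 4.19 ± 0.89 on the log2 scale (SE, edgeR adjusted p = 0.033). Leaving out any 1 of the ob/ob libraries raised its adjusted p to 0.0864, 0.119 and 0.102, and its log2 fold change was -2.59, past the threshold, without WT library 2. In limma-voom with all libraries it was -3.72 and missed the threshold (adjusted p = 0.0795). Scd2, a second desaturase, had 21.2, 18.7 and 21.6 CPM in ob/ob and 34.6, 41.7 and 45.3 CPM in WT, with no overlap. It fell by 0.98 ± 0.11 (SE, edgeR adjusted p = 0.00546) and kept its call with any 1 library left out. Fasn, fatty acid synthase, had 120, 83.4 and 117 CPM in ob/ob and 153, 342 and 151 CPM in WT, a log2 fold change of -1.01, and did not reach the threshold (edgeR adjusted p = 0.0769). It did in 4 of the 15 alternatives, among them the likelihood ratio test (adjusted p = 0.0139) and library size alone (adjusted p = 0.0393), and its log2 fold change was -0.51 without WT library 2.

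Dio1 is a selenoprotein, and the transcripts of the other selenoproteins and of the machinery that inserts selenocysteine were read beside it. Of 18 tested selenoproteins other than Dio1, 3 rose and the other 15 did not pass the test, with a median log2 fold change of 0.10. Txnrd1, the cytosolic thioredoxin reductase, rose by 0.48 ± 0.08 (edgeR adjusted p = 0.0141), Ept1 by 0.33 ± 0.07 (0.028) and Sep15 by 0.27 ± 0.06 (SE, edgeR adjusted p = 0.0471). The call of Txnrd1 was lost when ob/ob library 1 or 2 was left out, and those of Ept1 and Sep15 when any 1 library but WT library 3 was. Sep15 also missed the threshold with library size alone (0.15, adjusted p = 0.141), with upper quartile factors (adjusted p = 0.0666) and with the replicate number as a block (adjusted p = 0.0695). Of 7 genes for selenocysteine synthesis and insertion, 0 passed the edgeR test, 0 had an unadjusted p under 0.05, and 0 were called by DESeq2, the edgeR likelihood ratio test or limma-voom. Among them were Secisbp2, which recruits the insertion complex (log2 fold change 0.06, edgeR adjusted p = 0.648), and Sephs2, which makes the selenium donor (-0.09, edgeR adjusted p = 0.44). 

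**Figure D4:**
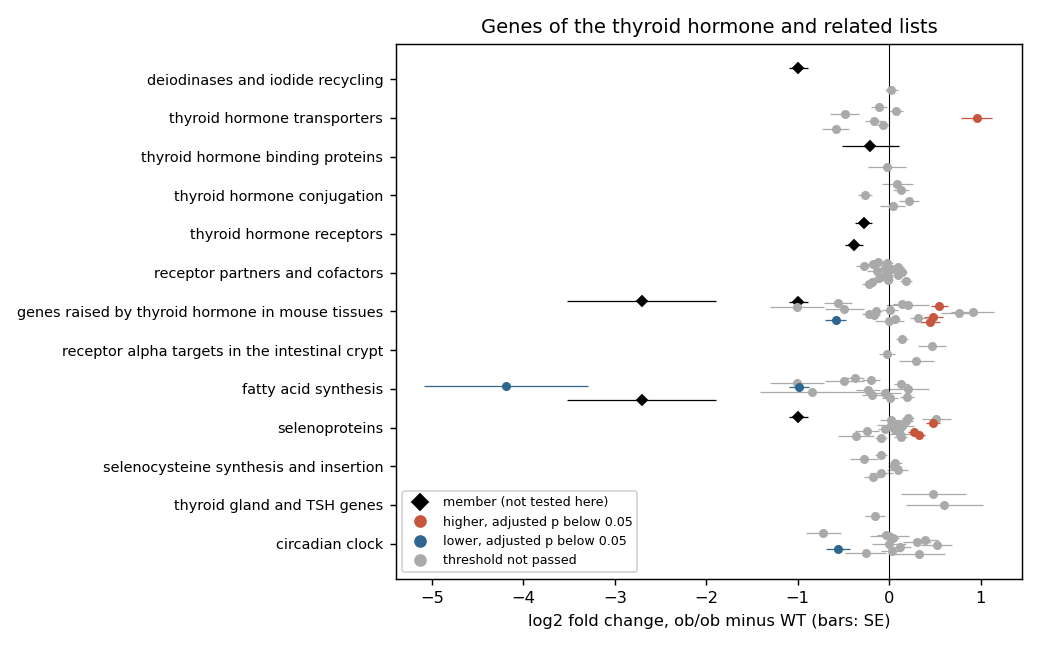
Log2 fold change (ob/ob minus WT, bars SE) of every tested gene of the 13 lists, with the 5 chosen genes as black diamonds, genes past the threshold in red (higher) or blue (lower) and the others in grey. Dio1 and Thrsp lie to the left of most genes of their lists, and the 18 other selenoproteins have a median of 0.10.

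The genes most like each of the 5 were named by Pearson's r of log2 CPM over the 6 libraries, which include both groups, so r partly measures the group difference and is a description only. For Dio1 they were Arid5b, Mansc1, Ktn1, Abca8a and Hfe, with r of 0.997 to 0.992. For Thra they were Tpp1, Glul, Zfp961, Srrm2 and Trim32, and for Thrb they included Smtn, Scn7a, Prmt2 and BC089597. For Thrsp they were Fabp4, Pttg1, Ccdc80, Trim32 and Trf, headed by Fabp4 at 0.996. For Crym they were Fam149b, Herpud2, Gng2, Zfp709 and Cpne1, with r of 0.985 to 0.94.

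Libraries held 14661981 to 18286080 counts. Log2 CPM correlated across genes (genes are no independent replicates) with Pearson's r of 0.989 to 0.991 among WT and 0.993 to 0.994 among ob/ob libraries, and every pair differed by more than sampling noise.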

How the data were processed

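The authors sequenced jejunal RNA in 3 libraries per genotype. According to the submitters' processing notes the authors used TopHat2 (version 2), HTSeq 0.6p1 and edgeR 3.4.2 with the build mm10. Library strandedness and the strand setting of counting are not given in the sources used here. The deposited table holds raw counts, integers without normalization for each gene symbol, and 0 entries lacked a gene name. A deposited table of the authors' own comparison (log2 fold change, mean log2 CPM, p and adjusted p) was not used. A total of 42 columns of values per sample, 12 of them from samples outside the series, were not used either.

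Genes above 1 CPM in at least 3 libraries (13168 of 23420) entered a quasi-likelihood F-test (R 4.3.3, edgeR 4.0.16) with TMM factors, the group alone in the model, two-sided tests and Benjamini-Hochberg adjustment at 0.05. The SE was taken as the absolute log2 fold change over the square root of F. Per-length values divide TMM-scaled CPM by the union of exons in GENCODE M21, or by the longest single transcript as an alternative. Pearson's r for the most similar genes used genes with a mean of at least 5 CPM. The depth was 14661981 to 18286080 counts per library, which puts 3 counts at 0.159 to 0.198 CPM. In a simulation of the comparison of ob/ob and WT over 13168 genes, 79% of the 100 genes with a 1.5-fold change were called and 99% of the 100 with a 2-fold change, and 15 of 193 calls were false. The changed genes were drawn only from genes with a mean of at least 5 CPM. The recovered shares therefore do not cover lower genes, such as Thrsp and Crym.

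Named were the 5 genes, every list gene past the threshold, up to 4 further genes of a list by smallest p, neighbours overlapping one of the 5 and the 5 genes most like each. Some further list genes and cell markers, chosen after their values were seen, are named as background or as level genes. A few genes covered by this rule are left out by name, but list totals include them. The 5 genes and the lists were chosen with earlier results of these data known. As alternatives the scaling or the filter was changed, the likelihood ratio test of edgeR, limma-voom (limma 3.58.1) or DESeq2 1.42.0 was used, the replicate number entered as a block, or 1 library was left out. Figures were drawn with matplotlib 3.10.9.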

Additional observations from a re-analysis of the deposited data

How the results depend on the processing

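Dio1, Thra, Thrb and Thrsp kept a negative log2 fold change under every alternative that gave them a value, and Crym did not keep a direction. With any 1 library left out the ranges were -1.08 to -0.90 for Dio1, -0.33 to -0.18 for Thra, -0.46 to -0.26 for Thrb, -3.17 to -1.28 for Thrsp and -0.56 to 0.02 for Crym. With scalings, filters and tests changed they were -1.11 to -0.99, -0.39 to -0.27, -0.50 to -0.37, -2.82 to -2.06 and -0.33 to -0.20. A filter at a mean of 5 CPM removed Thrsp and Crym. Among all tested genes, 496 higher and 251 lower became 328 and 1407 with library size alone, 390 and 468 with upper quartile factors, and 799 and 605 in the edgeR likelihood ratio test, and lay between 101 and 406 and between 16 and 256 with 1 library left out. Over the lists without the 5 genes, 7 higher and 4 lower became 12 and 8 in DESeq2, 13 and 10 in the likelihood ratio test, 7 and 19 with library size alone, 5 and 9 with upper quartile factors, 9 and 9 with no filter and 7 and 2 in limma-voom, and lay between 0 and 7 and between 1 and 6 with 1 library left out. The cause was not tested, except that fewer samples were fitted where a library was left out. At the depth of these libraries Dio2 and Dio3 were too low to test.

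Same-numbered ob/ob and WT libraries did not deviate together (correlation of deviations -0.0826, 0.0745 and -0.0208), so the numbers were not taken to pair the samples. With the replicate number as a block, 488 genes were higher and 242 lower, 8 and 4 over the lists, and the log2 fold changes were -0.99 for Dio1, -0.27 for Thra, -0.38 for Thrb, -2.40 for Thrsp and -0.23 for Crym. Not every library correlated best with its own number.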

Other observations

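Genes of the thyroid gland were mostly near the detection limit. Of 14, 3 were tested, 4 had 0 counts in all 6 libraries, and 0 passed the edgeR test, an unadjusted p under 0.05, DESeq2 or limma-voom. Duox2, the peroxide-making oxidase that gut epithelium shares with the thyroid, had 614, 969 and 1444 counts in ob/ob and 1058, 331 and 915 counts in WT, with overlapping groups. Pax8, a thyroid transcription factor, had 9.96 ± 0.84 CPM in ob/ob against 11.1 ± 0.82 in WT (mean ± SD, n = 3, edgeR adjusted p = 0.397). Tshr, the receptor of thyrotropin, had 1, 0 and 1 counts in ob/ob and 2, 16 and 1 in WT, and its 16 counts fell in the library with the most Adipoq.

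Crypt genes tied to the alpha receptor in mouse gave 0 edgeR calls among 4 tested, 1 higher at an unadjusted p under 0.05, and 1 higher in DESeq2, in the edgeR likelihood ratio test and in edgeR with the replicate number as a block. Ccnd1, cyclin D1, had 59.1 ± 8.0 CPM in ob/ob against 42.7 ± 9.2 in WT (mean ± SD, n = 3, edgeR adjusted p = 0.0987), with overlapping groups. Of 13 clock genes 1 fell, Dbp, a clock output factor, by 0.56 ± 0.13 on the log2 scale (SE, edgeR adjusted p = 0.0439), which missed the threshold with any 1 library left out but WT library 1. In limma-voom Dbp also missed it (adjusted p = 0.0524). Arntl, the core activator of the clock, had 11.5 ± 3.8 CPM in ob/ob against 11.5 ± 1.4 in WT (mean ± SD, n = 3, edgeR adjusted p = 0.999). Its ob/ob libraries were spread, at 15.5, 7.84 and 11.2 CPM. The sources used here do not give the hour of sampling.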
